A study of Mus musculus with 4 samples.

Results

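Of the 22481 gene symbols in the deposited mRNA table, 10 were taken by name: the D-type cyclin genes Ccnd1, Ccnd2 and Ccnd3, the genes of their kinase partners Cdk4 and Cdk6, and the CDK inhibitor genes Cdkn1a, Cdkn1b, Cdkn1c, Cdkn2a and Cdkn2c. Each symbol matched 1 row. No measured value entered that choice. The table reports RNA sequencing of pancreatic islets, the endocrine cell groups of the pancreas, from newborn mice (postnatal day 0, strain 129sv). It holds 2 libraries from animals of genotype Mettl3/14nKO and 2 from wild-type animals of the same strain and age. Mettl3 and Mettl14 encode the enzyme pair that writes N6-methyladenosine (m6A) into RNA. What drives the deletion (a promoter or cell type) is not stated in those labels. The labels do not say that libraries came from separate animals, so each p-value reflects the spread among these libraries alone, and that spread may be technical.

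A D-type cyclin binds CDK4 or CDK6, and the active complex phosphorylates the retinoblastoma protein, which releases E2F factors that switch on genes of DNA synthesis. Inhibitors of the INK4 group (Cdkn2a, Cdkn2c) bind CDK4 and CDK6 themselves, while those of the CIP/KIP group (Cdkn1a, Cdkn1b, Cdkn1c) bind cyclin-CDK complexes. In mice, loss of Cdk4 or of Ccnd2 leaves too few beta cells after birth, and Cdkn2a is known for its rise in islets with age.

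Sequencing depth was 1216498 and 744016 estimated fragments in Mettl3/14nKO islets against 1255526 and 1617429 in wild-type islets, a shallow depth at which 3 fragments stand for 1.85 to 4.03 CPM (fragments scaled to a common library total). Ins1 and Ins2, which define beta cells, took 3.40 and 4.22% of the fragments in Mettl3/14nKO islets against 6.57 and 6.75% in wild-type islets, so the islet label holds. Mettl3 had 30 and 9 fragments in Mettl3/14nKO islets against 20 and 47 in wild-type islets, Mettl14 had 24 and 12 against 32 and 54, and neither passed edgeR's test (log2 fold changes -0.25 and -0.71, adjusted p = 0.849 and 0.308). In the authors' FPKM both Mettl3/14nKO libraries lay below both wild-type ones, at 6.95 and 5.86 against 8.40 and 14.5 for Mettl3 and at 3.75 and 2.66 against 5.06 and 7.55 for Mettl14. The share of such genes was not computed in FPKM, but in CPM 22.6% of all tested genes lay below in this way. The median log2 fold change of all tested genes in log2(FPKM + 1) was -0.21, so that scale itself ran lower. Mettl3/14nKO replicate 1 had more Mettl3 fragments (30) than wild-type replicate 1 (20), the deeper of these 2 libraries. Both genes had negative log2 fold changes in Mettl3/14nKO islets without a call, and gene totals alone do not settle the genotype. Of 12 endothelial markers 7 fell, and their sum stood at 487 and 312 CPM in Mettl3/14nKO islets against 1317 and 1109 CPM in wild-type islets. Of 13 mesenchymal markers 9 rose (sums of 12998 and 9197 CPM in Mettl3/14nKO against 6165 and 4454 CPM in wild-type), and of 13 leukocyte markers 6 rose (363 and 660 CPM against 55.0 and 122 CPM). Of 10 beta-cell markers 4 fell (Ins1, Ins2, Iapp and Pcsk1), and the sum of the list, most of it Ins1 and Ins2, was 38466 and 47878 CPM against 72911 and 76431 CPM. Another 4 beta-cell markers had positive log2 fold changes that did not pass: Mafa 0.56, Slc30a8 0.29, Slc2a2 0.29 and Pdx1 0.11. Of 6 alpha-cell markers 0 passed, though all 6 had positive log2 fold changes (median 0.27), beside 50.4% of all tested genes. Their sums were 10553 and 13794 CPM in Mettl3/14nKO islets against 10162 and 8313 CPM in wild-type islets. Of 2 acinar markers tested 0 passed, of 9 duct markers 2 rose and 4 fell, and of 2 erythroid markers 1 fell. None of these markers was at 0 in every library. The marker calls are those of edgeR, which called 3.71% of all tested genes in either direction. DESeq2 called fewer, with 6 endothelial, 5 mesenchymal, 2 leukocyte and 2 beta-cell markers, and limma called 0 in each of these 4 lists. The part of these shifts in cell markers in the values given here was not tested, and in bulk RNA fewer cells of a type and less RNA per cell cannot be told apart.

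The genotype concerns an enzyme that acts at short sequence motifs, so the letters of its commonest core, GGAC, were counted in the mRNA with the longest coding part of each gene (GENCODE M21 transcripts, mm10, sense strand only). GGACT is a longer form, so every GGACT is also counted as a GGAC. In the coding part, Ccnd1 and Ccnd3 each carry 1 GGACT, 162 and 165 bases before its end. Their windows share 16 of 25 bases, those of the motif included. The in-frame Ccnd2 window most like that of Ccnd1, picked over the whole coding part, shares 14 of 25 and reads GGACC. It lies 618 bases before the end of the coding part, which is not the place of the Ccnd1 and Ccnd3 windows. In the coding part, Cdkn1b carries 1 GGACT, Cdkn1c 2 and Cdk6 2, while Ccnd2, Cdk4, Cdkn1a, Cdkn2a and Cdkn2c carry none. These windows show where the motif falls in the 2 cyclins and the 2 inhibitors that carry it there, with GGACT in capitals (strand of the mRNA, 25 bases each).
Ccnd1 (chromosome 7): agtgtgacccGGACTgcctccgtgc
Ccnd3 (chromosome 17): gcactgaagtGGACTgcctgcgagc
Cdkn1b (chromosome 6): aactaacccgGGACTtggagaagca
Cdkn1c, first (chromosome 7): agaaccgctgGGACTtcaacttcca
Cdkn1c, second (chromosome 7): cctgcacccgGGACTgctgcggcca

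Ccnd2 has 6 GGACT in its mRNA of 6330 bases and none in the coding part, and the mRNAs of Cdk4 and Cdkn2a have none at all, while 92.8% of 10865 genes hold at least 1. Outside the coding part, Cdkn1a has 4 GGACT and Cdkn2c 3. For Cdkn1a that is 1.92 per kilobase of mRNA, a density that 12.3% of those genes reach. Counted as GGAC per kilobase, Cdkn1c was the densest of the 10 genes, with 8.47 per kilobase, a density that 2.62% of those genes reach. Cdkn2a followed with 7.82 (reached by 4.40%) and Cdk4 with 5.85 (20.1%), whereas Cdk6 had 2.78 (81.1%) and Cdkn1b 2.86 (79.4%), against a median of 4.20 over all genes. A match is a description of letters; methylation was not measured.

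None of the genes passed the test between genotypes. Of the 10 genes, 9 had enough fragments to be tested with edgeR's quasi-likelihood test and 0 passed at an adjusted p of 0.05 in either direction, beside 3.71% of all 10956 genes tested. At an unadjusted p under 0.05 there was 1 of the 9, Cdkn1c, beside 15.9% of all genes. With DESeq2 0 of the 9 passed (0.975% of all genes) and with limma on log2(FPKM + 1) 0 of the 9 (0% of all genes). In CPM, 1 gene had both Mettl3/14nKO libraries above both wild-type ones (Cdkn1c) and 1 had both below (Cdkn1b), beside 22.6% of all tested genes in the upward and 22.6% in the downward direction, so neither count stood out from the background. The median log2 fold change of the 9 genes was 0.13, and 0.00 over all tested genes.

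**Figure D1:**
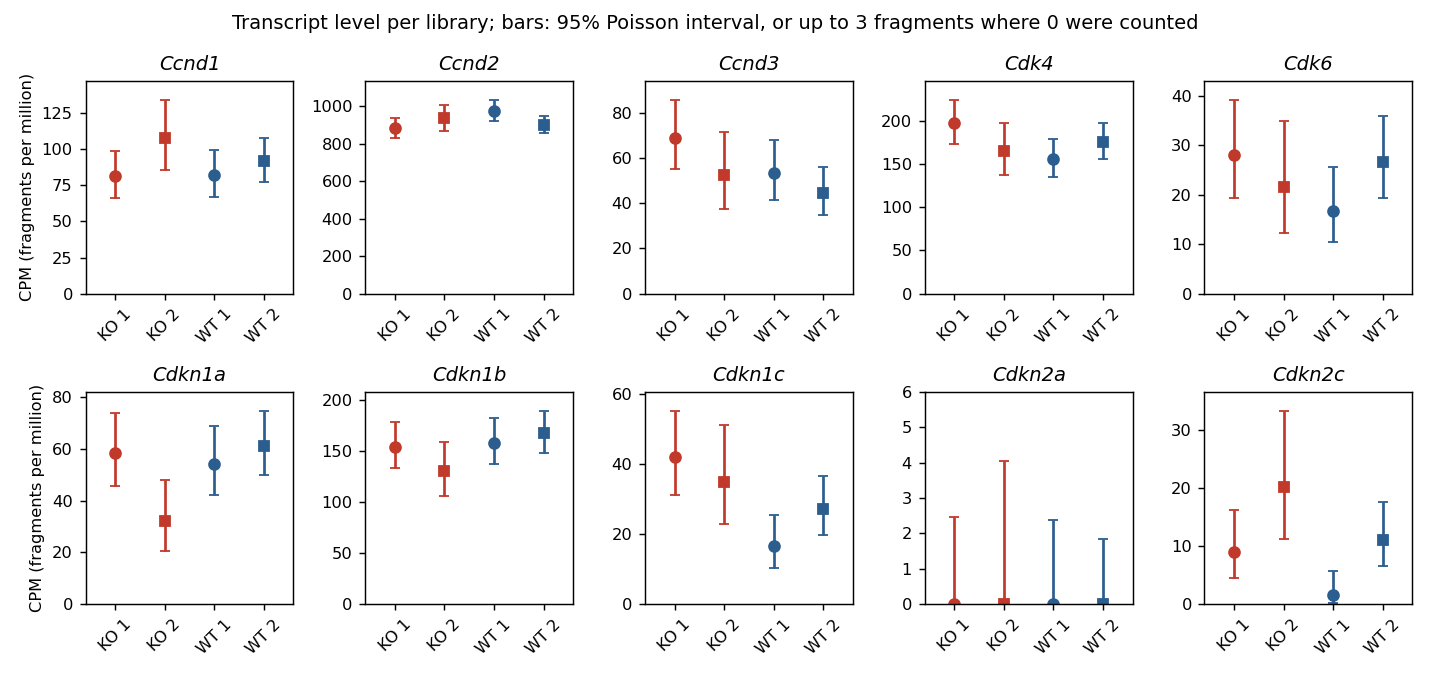
Level of each of the 10 genes in each library in CPM, with Mettl3/14nKO (KO, red) left of wild-type (WT, blue) and bars for the 95% exact Poisson interval of counting error, or up to 3 fragments where 0 were counted. Cdkn1c is higher in both Mettl3/14nKO libraries and Cdkn1b lower, the other detected genes overlap between groups, and Cdkn2a is at 0 throughout.

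Levels per length, in the authors' FPKM (fragments scaled by transcript length and library size), spanned a wide range. Over the 4 libraries Ccnd2 averaged 77.6 FPKM and Cdk4 73.8 FPKM, and their ranges overlapped. Both lay above all other members in every library. Next came Cdkn1b at 24.8, Ccnd3 at 20.7, Cdkn1a at 14.3, Ccnd1 at 11.7, Cdkn1c at 8.09, Cdkn2c at 4.07 and Cdk6 at 3.64 FPKM. Each of these overlapped its neighbours in the order over the libraries, so only the step between Cdk4 and Cdkn1b was wider than the spread. Cdkn2a was listed at 0.

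**Figure D2:**
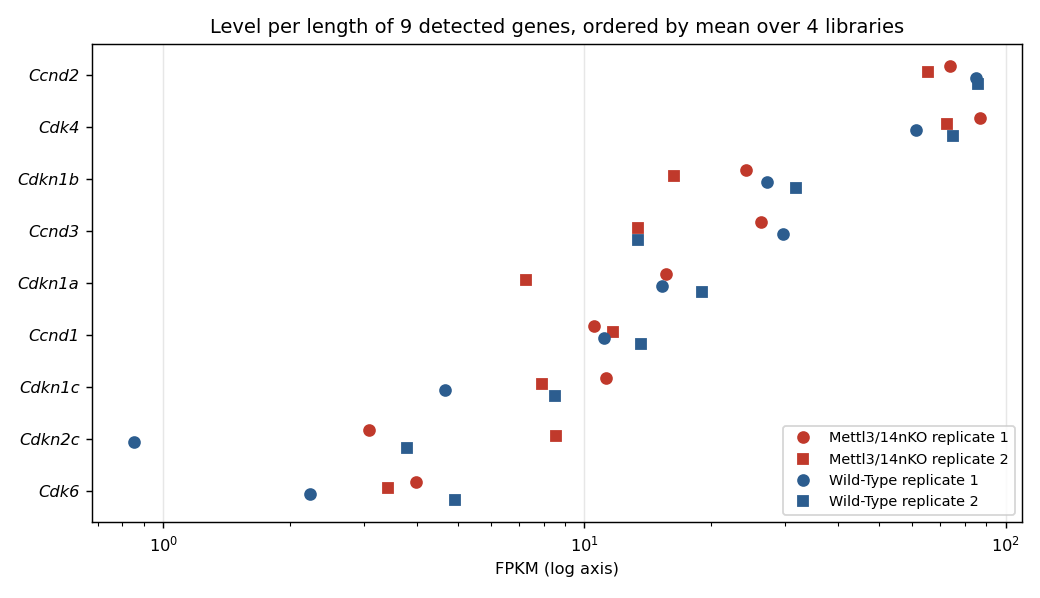
FPKM (log axis) of the 9 detected genes in each library, ordered by their mean, with Mettl3/14nKO in red above wild-type in blue. Ccnd2 and Cdk4, at 61.2 to 86.8 FPKM, stand clear of the rest, and Cdkn2c has the widest spread.

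Among the cyclins, Ccnd2 was the main transcript in both genotypes. Ccnd2 (ENSMUSG00000000184, mm10 chromosome 6:127125162-127152193, 5 exons), the D-type cyclin on which growth of beta-cell mass after birth depends in mice, had 1077 and 697 fragments in Mettl3/14nKO islets against 1225 and 1458 in wild-type islets. That is 885 and 937 CPM in Mettl3/14nKO islets against 976 and 901 CPM in wild-type islets, and the groups overlapped. Ccnd2 had a log2 fold change of -0.05 (SE 0.12, adjusted p = 0.908), with a 95% interval of -0.31 to 0.21. It was the most precisely measured member. Its exons overlap the antisense genes Gm43126 and 9330179D12Rik. In FPKM it stood at 73.7 and 65.5 in Mettl3/14nKO islets against 85.2 and 86.2 in wild-type islets, without overlap, but the median log2 fold change of all tested genes in log2(FPKM + 1) was -0.21 and that of Ccnd2 -0.30 (limma adjusted p = 0.570). Of the summed FPKM of the 3 D-type cyclins, Ccnd2 took 66.7 and 72.3% in Mettl3/14nKO islets against 67.6 and 76.1% in wild-type islets.

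Ccnd1 (ENSMUSG00000070348, chromosome 7:144929931-144939925, 5 exons), a cyclin that many growth factors induce, had 81.4 and 108 CPM in Mettl3/14nKO islets against 82.0 and 91.5 CPM in wild-type islets. The highest value was that of Mettl3/14nKO replicate 2 and the groups overlapped. For Ccnd1 the log2 fold change came to 0.09 (SE 0.19, adjusted p = 0.889), with an interval of -0.32 to 0.50, and turned to -0.11 without Mettl3/14nKO replicate 2. Its exons overlap those of LTO1 on the other strand.

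Ccnd3 (ENSMUSG00000034165, chromosome 17:47505051-47599691), which has 21 annotated transcripts, the most of the 10 genes, had 84 and 39 fragments in Mettl3/14nKO islets against 67 and 72 in wild-type islets, or 69.1 and 52.4 CPM against 53.4 and 44.5 CPM. The groups overlapped narrowly and edgeR gave a log2 fold change of 0.33 (SE 0.23, adjusted p = 0.562), with an interval of -0.17 to 0.84. It was 0.12 without Mettl3/14nKO replicate 1 and 0.49 without Mettl3/14nKO replicate 2. In FPKM the picture differed: 26.2 and 13.4 in Mettl3/14nKO against 29.6 and 13.4 in wild-type libraries, so the replicate 1 library of each genotype was high and the replicate 2 library low. On that scale its log2 fold change was -0.09 (SE 0.43, limma adjusted p = 0.945), opposite in sign. The median of all tested genes there was -0.21, so Ccnd3 lay above the median on both scales. The FPKM that 1 CPM was worth for Ccnd3 was 0.380 and 0.255 in Mettl3/14nKO islets against 0.555 and 0.301 in wild-type islets. That is a 2.17-fold range, against 1.37-fold for Ccnd1 and Ccnd2 and a median of 1.38-fold over 10703 genes. Exons of Ccnd3 overlap those of Bysl on the other strand.

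**Figure D3:**
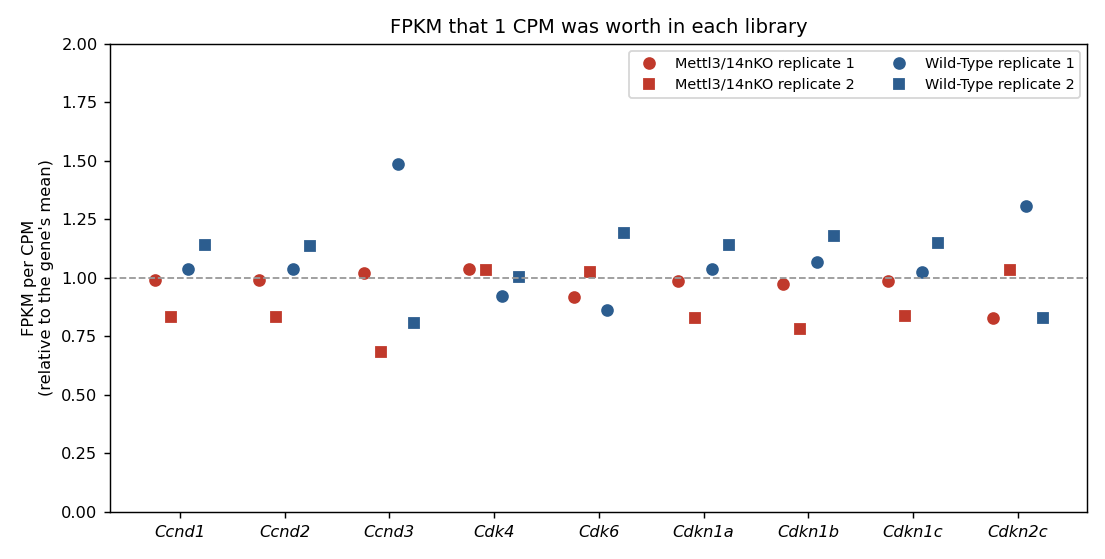
FPKM that 1 CPM was worth in each library, divided by the gene's mean over the 4 libraries, for the 9 detected genes (Mettl3/14nKO red, wild-type blue). Ccnd1, Ccnd2 and Cdkn1a share a library pattern, with 0.83 in Mettl3/14nKO replicate 2 and 1.14 in wild-type replicate 2, whereas Ccnd3 reaches 1.49 in wild-type replicate 1.

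Of the kinases, Cdk4 was far more abundant than Cdk6. Cdk4 (ENSMUSG00000006728, chromosome 10:127063534-127067920, 8 exons) took 95.6 and 95.5% of their summed FPKM in Mettl3/14nKO islets against 96.5 and 93.8% in wild-type islets. It had 197 and 165 CPM in Mettl3/14nKO islets against 156 and 176 CPM in wild-type islets, with overlapping groups. Its log2 fold change of 0.13 (SE 0.15, adjusted p = 0.755) had an interval of -0.18 to 0.45, and dropping Mettl3/14nKO replicate 1 left 0.0016, dropping Mettl3/14nKO replicate 2 0.23. Cdk6 (ENSMUSG00000040274, chromosome 5:3341485-3531008) had 34 and 16 fragments in Mettl3/14nKO islets against 21 and 43 in wild-type islets, or 27.9 and 21.5 CPM against 16.7 and 26.6 CPM. The groups overlapped, with the lowest value in wild-type replicate 1, and the log2 fold change of 0.19 (SE 0.34, adjusted p = 0.867) had an interval of -0.55 to 0.93. Exons of Cdk4 overlap those of Tspan31, and exons of Cdk6 an antisense gene, Gm17590.

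Cdkn1c (ENSMUSG00000037664, chromosome 7:143458339-143461050, 4 exons), an imprinted CIP/KIP inhibitor whose loss goes with excess beta-cell proliferation in humans, had the smallest p of the 9 genes. It had 51 and 26 fragments in Mettl3/14nKO islets against 21 and 44 in wild-type islets, or 41.9 and 34.9 CPM against 16.7 and 27.2 CPM. Both Mettl3/14nKO libraries lay above both wild-type libraries. By edgeR Cdkn1c had a log2 fold change of 0.79 (SE 0.31, adjusted p = 0.217), with an interval of 0.12 to 1.47 before any correction for the number of genes. It was 0.51 without wild-type replicate 1, 1.20 without wild-type replicate 2 and 0.51 with limma on FPKM, and passed in none of these. The counting intervals of Mettl3/14nKO replicate 2 (22.8 to 51.2 CPM) and wild-type replicate 2 (19.8 to 36.5 CPM) overlapped, and in FPKM the groups overlapped too, at 11.3 and 7.94 in Mettl3/14nKO against 4.66 and 8.52 in wild-type libraries. Mesenchymal markers, at 12998 and 9197 CPM against 6165 and 4454 CPM, were higher in the same libraries, and their part in the result was not tested. An antisense gene, Gm44732, overlaps its exons.

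Cdkn1b (ENSMUSG00000003031, chromosome 6:134920401-134925513, 2 exons), the inhibitor that holds resting cells out of the cycle, had the highest level of the inhibitors. It had 155 and 130 CPM in Mettl3/14nKO islets against 158 and 168 CPM in wild-type islets, so the groups did not overlap but lay close. It had a log2 fold change of -0.19 (SE 0.15, adjusted p = 0.610), with an interval of -0.51 to 0.12. Leaving out 1 library gave values from -0.32 (Mettl3/14nKO replicate 1) to -0.10 (Mettl3/14nKO replicate 2), and limma on log2(FPKM + 1) gave -0.54 (adjusted p = 0.461), where the median of all tested genes was -0.21. Cdkn1a (ENSMUSG00000023067, chromosome 17:29090976-29100727, 3 exons), the inhibitor that p53 induces, had 71 and 24 fragments in Mettl3/14nKO islets against 68 and 99 in wild-type islets. In CPM this is 58.4 and 32.3 against 54.2 and 61.2, and the low value of Mettl3/14nKO replicate 2 stood alone. This gave a log2 fold change of -0.31 (SE 0.27, adjusted p = 0.664), with an interval of -0.88 to 0.27. It was -0.01 without Mettl3/14nKO replicate 2 and -0.83 without Mettl3/14nKO replicate 1 (adjusted p = 0.251), so its size rested on Mettl3/14nKO replicate 2.

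Of the INK4 inhibitors, Cdkn2a was not detected and Cdkn2c was low. Cdkn2a (ENSMUSG00000044303, chromosome 4:89274471-89294653), which encodes an INK4 inhibitor and, in another reading frame, the p53 activator ARF, had 0 fragments in every library. A count of 0 allows up to 2.47 and 4.03 CPM in Mettl3/14nKO and up to 2.39 and 1.85 CPM in wild-type libraries, so no level above these was detectable in either genotype and no fold was computed. Cdkn2c (ENSMUSG00000028551, chromosome 4:109660876-109667189) had 11 and 15 fragments in Mettl3/14nKO islets against 2 and 18 in wild-type islets, or 9.04 and 20.2 CPM against 1.59 and 11.1 CPM. The 95% Poisson interval of wild-type replicate 1 (0.193 to 5.75 CPM) lay below that of wild-type replicate 2 (6.60 to 17.6 CPM), so the wild-type libraries differed from each other beyond counting error. The log2 fold change of 1.003 (SE 0.68, adjusted p = 0.544) had an interval of -0.45 to 2.48, and it was 0.31 without wild-type replicate 1 and 3.03 without wild-type replicate 2. The Poisson intervals and the limits from a count of 0 cover counting error only.

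**Figure D4:**
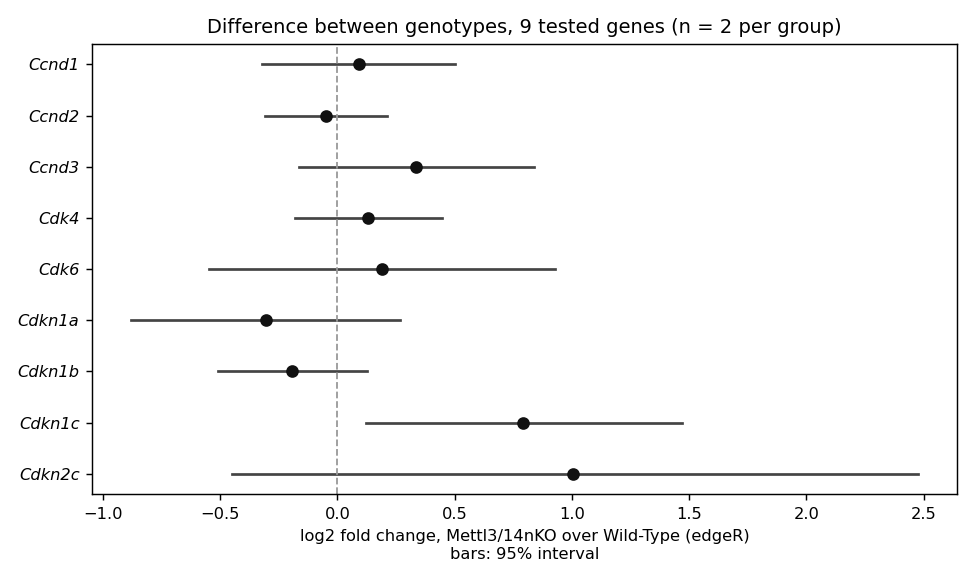
Log2 fold change of Mettl3/14nKO over wild-type (edgeR) of the 9 tested genes, with 95% intervals as bars. Ccnd2 has the narrowest interval (-0.31 to 0.21) and Cdkn2c the widest (-0.45 to 2.48), and Cdkn1c is the gene whose interval lies above 0 (0.12 to 1.47) before correction.

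The genes around the cyclin D step were read from 9 lists chosen by function. Of 24 S-phase genes that E2F factors activate, 19 were tested and 0 passed with edgeR, DESeq2 or limma. At an unadjusted edgeR p under 0.05 there were 6, beside 15.9% of all tested genes. Positive log2 fold changes were found in 18 (median 0.56), beside 50.4% of all tested genes. The smallest p were those of the chromatin gene Uhrf1 (1.01, adjusted p = 0.0984) and the replication helicase genes Mcm2 (0.80, 0.120) and Mcm5 (0.82, 0.180) with edgeR, followed by the chromatin assembly gene Chaf1a (0.81, 0.234). Uhrf1 passed without Mettl3/14nKO replicate 2 (edgeR adjusted p = 0.00462), and the thymidylate synthase gene Tyms, chosen after its values were seen, without wild-type replicate 1 (0.0169). The summed level of that list was 880 and 746 CPM in Mettl3/14nKO islets against 552 and 631 CPM in wild-type islets, without overlap. In FPKM the groups overlapped for Uhrf1 and Mcm5 and did not for Mcm2 and Chaf1a. Genes of a list were measured in the same libraries, so their signs are not separate results.

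Of 18 mitosis genes, all tested, 0 passed with edgeR, DESeq2 or limma. At an unadjusted edgeR p under 0.05 there were 2, beside 15.9% of all tested genes. Negative log2 fold changes were found in 15 (median -0.27), beside 49.6% of all tested genes. The sums of the list were 1225 and 1202 CPM in Mettl3/14nKO islets against 1404 and 1352 CPM in wild-type islets. The spindle motor gene Kif11 had -0.70 (adjusted p = 0.184), the mitotic kinase gene Aurkb -1.28 (0.307), the topoisomerase gene Top2a -0.29 (0.387) and the spindle gene Nusap1 -0.57 (0.430) with edgeR. Aurkb rests on few fragments, 11 and 1 in Mettl3/14nKO against 15 and 27 in wild-type. The medians of S-phase and mitosis genes thus leaned in opposite directions without a called member, and the lean was uneven. Mki67, the mitosis gene with the most fragments, had -0.07. The 3 positive mitosis genes were Birc5 (0.17), Cenpe (0.08) and Plk1 (0.07). Among the S-phase genes Pcna had 0.09 and Slbp 0.08, and Prim1 was the 1 negative (-0.08). These genes were chosen after their values were seen. Whether the lists differ from each other was not tested, and the cell markers given above moved in the same libraries.

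Of 10 tested genes of other cell-cycle cyclins, CDKs and the CDK-activating kinase (11 listed) 0 passed, with Ccnb2 at -0.75 (adjusted p = 0.414), Cdk1 at -0.51 (0.596), Ccne2 at 0.50 (0.657) and Ccnh, a subunit of the CDK-activating kinase, at -0.39 (0.668) with edgeR, and the median was -0.11. Of 13 pocket protein and E2F genes 0 passed (median -0.07), with E2f7 at -0.64 (adjusted p = 0.343), E2f6 at 0.89 (0.354), the pocket protein gene Rbl2 at 0.34 (0.470) and E2f2 at -0.77 (0.538) with edgeR. The other INK4 genes, Cdkn2b (-0.20, adjusted p = 0.914) and Cdkn2d (0.10, 0.944), did not pass either. Cdkn3 lay under edgeR's filter on low counts and did not pass with DESeq2 or limma.

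Of 18 tested p53 genes (23 listed), 1 rose and 0 fell (median -0.01), beside 3.71% of all tested genes called in either direction. At an unadjusted edgeR p under 0.05 there were 2, beside 15.9% of all tested genes. Cdkn1a stood at -0.31. Ccng1, a p53-induced cyclin-like gene, had 156 and 164 CPM in Mettl3/14nKO islets against 87.6 and 114 CPM in wild-type islets and rose by 0.65 (SE 0.17, adjusted p = 0.0483). That edgeR call did not survive dropping any 1 of the 4 libraries (0.0516 to 0.335), and Ccng1 did not pass with DESeq2 (0.537). Btg2 had -0.55 (adjusted p = 0.182, and 0.0478 without Mettl3/14nKO replicate 2), Gadd45a 0.41 (0.638) and Trp53inp1 -0.18 (0.718).

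Of 16 tested genes of mitogen signalling (20 listed), 2 rose and 1 fell with edgeR (median 0.14), beside 3.71% of all tested genes called in either direction. At an unadjusted edgeR p under 0.05 there were 7, beside 15.9% of all tested genes. Egfr had 132 and 98.1 CPM in Mettl3/14nKO islets against 47.8 and 43.3 CPM in wild-type islets. Pdgfra had 238 and 101 CPM in Mettl3/14nKO islets against 70.9 and 58.1 CPM in wild-type islets. On the log2 scale these receptor genes rose by 1.35 (SE 0.20, adjusted p = 0.00275) and 1.44 (SE 0.29, 0.0162), and the IGF1 receptor gene Igf1r fell by 0.76 (SE 0.14, 0.00850). Igf1r had 244 and 286 CPM in Mettl3/14nKO islets against 473 and 416 CPM in wild-type islets, without overlap. Egfr, Pdgfra and Igf1r also passed with DESeq2 (0.0138, 0.0165 and 0.0115) and none with limma (0.176 to 0.464). Without wild-type replicate 2 none of the 3 passed (0.0878, 0.270 and 0.0687), and Pdgfra did not without Mettl3/14nKO replicate 1 either (0.201). Pdgfra also stands in the mesenchymal marker list, whose sum was higher in the Mettl3/14nKO libraries. Myc, a driver of growth, had -0.82 (adjusted p = 0.139).

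The cyclin and CDK, pocket protein, chromatin and turnover lists had 0 genes at an unadjusted edgeR p under 0.05, beside 15.9% of all tested genes. With DESeq2 or limma 0 of their genes passed. Among regulators of the members, 0 of 7 chromatin regulators of Cdkn genes passed (median 0.12). Bmi1, the Polycomb gene known for keeping Cdkn2a silent in young beta cells, had 0.31 (adjusted p = 0.563), Kmt2a 0.12 (0.718), Ezh2 0.22 (0.779) and Eed 0.19 (0.819). Of 6 genes of cyclin D and p27 turnover 0 passed (median -0.26), with Fbxo31 at -0.55 (adjusted p = 0.477), Ambra1 at 0.24 (0.509), Fbxo4 at -0.83 (0.510) and Cks1b at -0.27 (0.867) with edgeR.

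**Figure D5:**
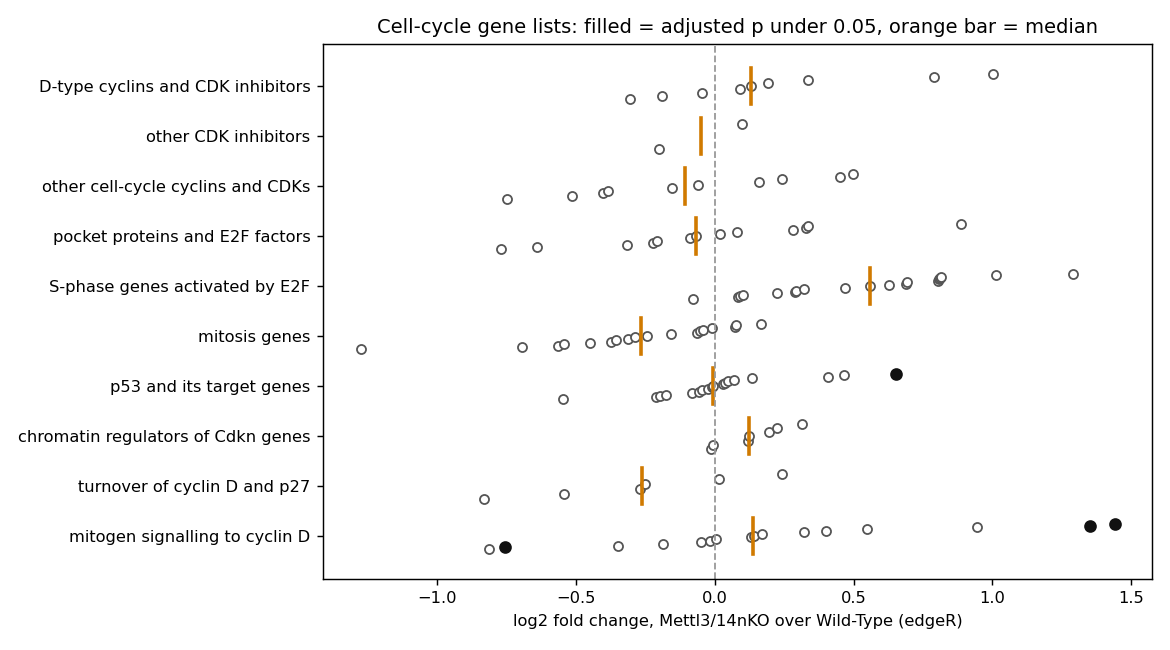
Log2 fold change of Mettl3/14nKO over wild-type (edgeR) of each tested gene of the cyclin D genes and the 9 lists around them, with filled points for an adjusted p under 0.05 and an orange bar at each list's median. S-phase genes lie mostly right of 0 (median 0.56), mitosis genes mostly left (median -0.27), and the 4 filled points are Ccng1, Egfr, Pdgfra and Igf1r.

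The genes whose pattern over the 4 libraries was most like that of each cyclin were taken from 4568 genes with a mean of at least 50 CPM, by the root mean squared difference of centred log2(CPM + 1). For Ccnd2 they were Tardbp (0.0073), Pdia3 (0.013) and Marcks (0.015), for Ccnd1 Pkdcc (0.019), Rer1 (0.023) and Slc12a7 (0.025), and for Ccnd3 Eps15l1 (0.012), Galnt2 (0.026) and Gab2 (0.032). Each distance rests on 4 values per gene and is among the smallest of 4568, and shared regulation was not tested.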

How the data were processed

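The authors deposited FPKM and, under a header of counts, estimated counts per gene, per the file headers. Tools listed in the submitters' processing notes are HISAT2 2.0.4, cutadapt 1.9.3, Cuffdiff and Cufflinks, with the build mm10. No strand setting or annotation is stated, so reads from overlapping genes cannot be told apart. The deposited estimated counts are multiples of 1 step per library (0.835 to 1.33) for 92.3 to 93.3% of values above 0, within 0.01 of a whole number. They were divided by the step and rounded to whole fragments, and genes of 1 symbol were summed. CPM scales fragments to the library total. Differences were tested with edgeR 4.0.16 (quasi-likelihood, TMM, filterByExpr, all 4 libraries) in R 4.3.3, with Benjamini-Hochberg adjustment over 10956 genes; "rose" and "fell" mean an adjusted p under 0.05. Alternatives were DESeq2 1.42.0, limma 3.58.1 (log2(FPKM + 1), trend, mean FPKM of at least 1), other scalings and filters, a replicate block and each library left out. Scripts were tested on simulated counts. The members, lists and the choice of edgeR were made with earlier results of these data known. Named genes are all members and up to 4 of each list by smallest p, except those chosen after their values were seen. Coordinates come from GENCODE M21, which holds 96.8% of the identifiers.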

Additional observations from a re-analysis of the deposited data

How the results depend on the processing

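No member passed under any of the 13 alternatives. Signs held throughout for Cdk4, Cdkn1a, Cdkn1b, Cdkn1c and Cdkn2c. With limma on FPKM, where the median of all tested genes was -0.21, Ccnd1 had -0.14 (-0.15 with a pseudocount of 0.1) and Ccnd3 -0.086 (-0.088), against 0.09 and 0.33 with edgeR. Dropping limma's filter cannot change these values, because each gene's fold change is fitted alone. With 1 library left out in turn, Ccnd1 ranged from -0.11 to 0.31, Ccnd2 from -0.11 to 0.012 and Cdk6 from -0.084 to 0.57. The count of genes called over the whole table was 406 with edgeR, 142 with DESeq2, 0 with each limma fit, 857 without a filter on low counts and 75 to 675 with 1 library left out (lowest when wild-type replicate 2 was dropped, highest when Mettl3/14nKO replicate 2 was; 266 with Mettl3/14nKO replicate 1 dropped). The cause was not tested. The replicate numbers share only a number across genotypes (correlation of deviations 0.02 over 10956 genes), and with the replicate block 381 genes and 0 members were called. Depth limits Cdkn2a, Cdkn2c and Cdk6 most.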

Other observations

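The summed FPKM of the 5 CDK inhibitor genes was 54.1 and 40.1 in Mettl3/14nKO islets against 47.9 and 63.0 in wild-type islets, and that of the 3 D-type cyclins 110 and 90.6 against 126 and 113. Inhibitors over cyclins gave ratios of 0.490 and 0.443 in Mettl3/14nKO islets against 0.381 and 0.557 in wild-type islets, so the Mettl3/14nKO values lay between those of wild-type. Within the inhibitors, Cdkn1c took 20.8 and 19.8% of the summed FPKM in Mettl3/14nKO islets against 9.73 and 13.5% in wild-type islets. Cdkn1b took 44.6 and 40.7% against 56.6 and 50.4%, and neither was tested. As parts of 1 sum these are not separate results, and Cdkn2c, on 15 fragments, took 21.4% in Mettl3/14nKO replicate 2. The FPKM of Cdkn1c itself overlapped between groups.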
